A study of Homo sapiens with 18 samples.

Results

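Dense clusters of open-chromatin peaks were mapped from ATAC-seq peak lists of the established human neuroblastoma lines Kelly and BE2C. The members were chosen by the presence of called peaks. A region was kept where all 3 libraries with the empty vector pLKO of a line had a peak, on chromosomes 1 to 22, with peaks merged at an overlap of at least 1 bp. Regions less than 12.5 kb apart were joined into stretches, and a stretch of at least 5 regions was called a cluster. This gave 52 clusters among 14014 stretches in Kelly and 130 clusters among 20318 stretches in BE2C, 182 of 34332 in all. The clusters held 393 of 16251 regions in Kelly (2.42%) and 843 of 25558 regions in BE2C (3.30%). Because the pLKO peaks chose the clusters, the number, size and density of clusters are given as a description with no test.

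ATAC-seq marks open DNA by the insertion of adapters with a transposase. The series title places the study in neuroblastoma with MYCN amplification and names AhR, the ligand-activated transcription factor encoded by AHR. Cells of each line carried a lentivirus with 1 of 2 short hairpin RNAs against AHR, shAhR-2 or shAhR-1, or with pLKO, so that every group had a lentiviral vector. Each of the 6 groups had 3 libraries, 18 in all, and each library was made from 50K cells with 30 min of transposition and 10 cycles of PCR. Nothing in the labels ties the 3 libraries of a group to separate cultures, so p-values measure only the spread between libraries, which may be technical. The hairpins were carried by whole populations of transduced cells as far as the labels say, and the level of AHR was not analysed here.

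Super-enhancers are groups of neighbouring enhancers that are usually found by joining peaks of an activating chromatin mark or of a coactivator and ranking the joined stretches by signal. In neuroblastoma such groups are known to lie at genes of the core regulatory circuit, a small set of transcription factors that bind their own enhancers and hold the cell in an adrenergic, sympathetic-neuron-like state. Open chromatin alone does not tell an enhancer from a promoter or an insulator, so the clusters described here resemble super-enhancers only in their density. Positions are on hg19 as in the deposited lists. The genes, cell-type markers and sequences at these positions were not analysed here.

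The lists held between 8967 and 79435 autosomal peaks. The shortest list was replicate 1 of Kelly shAhR-1, and all 6 shAhR-2 lists were longer than every other list, at 58932 to 79435 peaks. The genome-wide background was solved from fold and p-value. It tends to be higher in deeper libraries, but the number of reads was not known. It ranged between 2.56 and 4.42 overlapping reads in shAhR-2 libraries. In shAhR-1 libraries it ranged between 0.60 and 1.75, and in pLKO libraries between 1.26 and 1.92. To set libraries of unequal length side by side, each list was also cut to the peaks with the highest −log10 p, keeping 8967 per Kelly library and 24894 per BE2C library, and these are called shortened lists. Replicate 2 of Kelly pLKO stood apart from the other pLKO libraries of Kelly. Its full list had 19445 peaks, against 33907 and 29196 in replicates 1 and 3, although its genome-wide background was 1.92, against 1.77 and 1.26. Its shortened list had 6.88 peaks per Kelly cluster, against 3.62 and 3.67.

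Most clusters were small. The median was 6 regions in each line, and the largest cluster had 22 regions in Kelly and 24 in BE2C. The median cluster was 34.9 kb wide in Kelly and 33.2 kb in BE2C, and all clusters together spanned 1.95 Mb and 4.53 Mb. At the threshold, 20 Kelly and 62 BE2C clusters had exactly 5 regions, and 53 Kelly and 179 BE2C stretches with 4 regions were left out. The median width was 30.3 kb at 5 regions and 21.1 kb at 4 in Kelly, and 28.0 kb and 22.5 kb in BE2C. Regions inside clusters were slightly narrower than regions outside, with medians of 780 bp against 872 bp in Kelly and 736 bp against 838 bp in BE2C.

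The largest clusters had a high local background. From the fold and the p-value of each peak the local background used by the caller was solved and divided by the genome-wide background of the library. This local background includes the reads of the cluster itself. At least 10 times the genome-wide background, a limit chosen after the values were seen, was found in 30 of 52 Kelly clusters (57.7%), against 1.33% of all Kelly stretches. In BE2C it was found in 27 of 130 clusters (20.8%), against 0.492% of all BE2C stretches. Among stretches of at least 7 regions the share was 22 of 23 in Kelly and 15 of 37 in BE2C. Signal of the cluster and background around it cannot be told apart in this value. These clusters of high background are called by their position below.

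**Figure D1:**
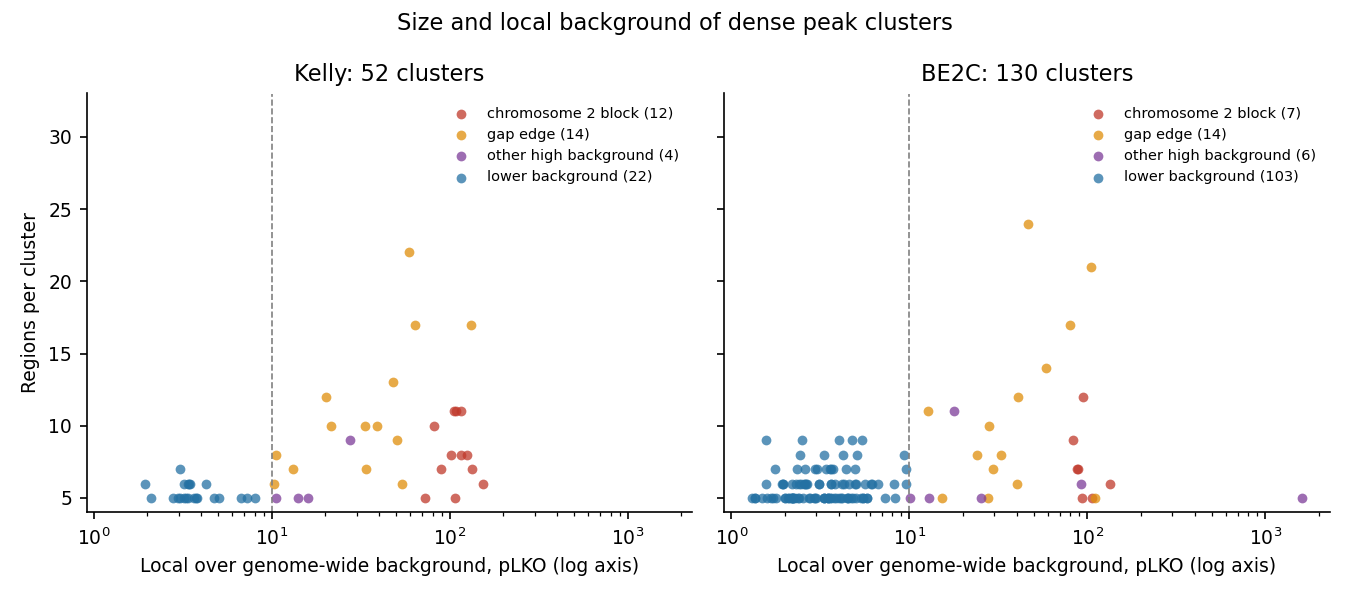
Regions per cluster (vertical axis) against the local background over the genome-wide background in pLKO libraries (horizontal log axis), 1 point per cluster, for Kelly (left) and BE2C (right), with the dashed line at 10 times. Every cluster with more than 9 regions lies right of the dashed line, in the chromosome 2 block, near a long peak-free stretch or, in BE2C, in 1 other place.

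The first class of high background was a block on the short arm of chromosome 2. It held 12 Kelly clusters with 97 regions between chr2:15903462 and chr2:16840759, and 7 BE2C clusters with 51 regions between chr2:16104920 and chr2:16602009. Their local background in pLKO was 72.5 to 153 times the genome-wide one in Kelly and 82.6 to 134 times in BE2C. MYCN, the transcription factor gene whose amplification the series title names, is known to lie on the distal short arm of chromosome 2. Its position on hg19 was not looked up here, and extra DNA copies and open chromatin cannot be told apart in peak values.

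The second class lay within 3 Mb of the longest peak-free stretch of its chromosome, which on many chromosomes is known to be the centromere gap of the assembly. It held 14 Kelly clusters of 154 regions and 14 BE2C clusters of 153 regions, with a median local background of 36.2 and 36.3 times. The 5 largest clusters of Kelly and the 4 largest of BE2C belonged to it. The largest, chr4:49093422-49163944 in Kelly and chr4:49093417-49163712 in BE2C, held 22 and 24 regions. The cluster chr10:42356033-42409533 held 17 regions in Kelly and its BE2C counterpart held 21. The cluster at chr16:46386484-46435517 held 17 regions in both lines, and the one at chr2:92269009-92325897 held 13 in Kelly and 14 in BE2C. Assemblies such as hg19 are known to represent satellite repeats next to centromeres incompletely, so reads of many copies can gather on the copies present. The part of such repeats in these clusters was not tested.

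The remaining clusters of high background lay elsewhere. There were 4 in Kelly and 6 in BE2C, of which those at chr1:161410015-161440337 and chr2:132996260-133045037 in Kelly each overlapped a BE2C cluster. The highest local background of all, 1611 times, was found in BE2C at chr1:564503-570257, where 5 regions fell within 5755 bp. That is the narrowest of all 182 clusters.

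Clusters of lower background numbered 22 in Kelly and 103 in BE2C, and their likeness to super-enhancers was not tested. They held 118 regions in Kelly and 602 in BE2C, with a median of 5 regions in each line and at most 7 and 9. Their local background had a median of 3.40 times in Kelly and 3.33 times in BE2C, against 2.34 and 1.90 times over all stretches. The fold of their peaks spanned a range like that of peaks outside clusters. In full lists their median fold over local background lay between 4.50 and 6.32 across the 18 libraries. Peaks in clusters of high background had medians of 2.33 to 3.01, and peaks outside clusters 4.40 to 6.93. Library by library, the median in clusters of lower background was above that outside clusters in every shAhR-2 library. It was below that outside clusters in every shAhR-1 and pLKO library. The Kelly means were 5.34 against 4.83 outside with shAhR-2, and 5.22 against 5.67 outside with shAhR-1. In BE2C, 5 clusters shared the largest number, 9 regions, at chr2:219721054-219774261, chr3:72338081-72386421, chr6:26172051-26235431, chr7:150635358-150686274 and chr10:80980836-81035136. In Kelly the largest was chr1:153918457-153963472 with 7 regions. These clusters of lower background were named after their values were seen. Some clusters of lower background also lay within 3 Mb of the longest peak-free stretch. Within that distance lay 34.6% of all Kelly clusters, against 26.9% in the second class, and 19.2% against 10.8% in BE2C.

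Chromosome 2 carried more clusters than any other chromosome in each line. It held 17 of 52 Kelly clusters (32.7%) and 25 of 130 BE2C clusters (19.2%), against 8.11% and 8.49% of all regions. Without clusters of high background it held 2 of 22 in Kelly and 14 of 103 in BE2C. Chromosome 19 held 12 BE2C clusters (9.23%), 11 of them of lower background, against 4.35% of BE2C regions. Chromosome 3 held 6 clusters in BE2C, all of lower background, and 0 in Kelly, although it carried 1151 Kelly regions. Likewise chromosome 7 held 3 clusters in BE2C, all of lower background, and 0 in Kelly, with 1039 Kelly regions. No cluster was found on chromosomes 13, 15 and 18 in either line, with 185 to 788 regions each.

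Of the Kelly clusters, 40 of 52 (76.9%) overlapped a BE2C cluster, and of the BE2C clusters, 39 of 130 (30.0%) overlapped a Kelly cluster. The numbers differ because 1 BE2C cluster can overlap several Kelly clusters. Across all stretches, of any number of regions, 87.9% of those in Kelly overlapped a BE2C stretch and 60.1% of those in BE2C overlapped a Kelly stretch. Counted in this wider way, 94.2% of Kelly clusters and 94.6% of BE2C clusters overlapped a stretch of the other line. These were 49 Kelly and 123 BE2C clusters.

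The classes differed in this overlap. In the class of high background next to long peak-free stretches, all 14 Kelly clusters overlapped a BE2C cluster. Of the 14 BE2C clusters of this class, 11 overlapped a Kelly cluster. In the chromosome 2 block the counts were 7 of 12 in Kelly and 6 of 7 in BE2C. Of the clusters of lower background, 17 of 22 in Kelly (77.3%) and 20 of 103 in BE2C (19.4%) overlapped a cluster of the other line. For the 83 BE2C clusters of lower background without an overlapping Kelly cluster, the overlapping Kelly stretches held a median of 2 regions in all. This count includes regions outside the cluster, and 6 of the 83 overlapped no Kelly stretch. For the 5 such Kelly clusters the overlapping BE2C stretches held 3 or 4 regions in all. Kelly had fewer regions to begin with, 16251 against 25558 in BE2C, and its replicate 2 of pLKO had the shortest pLKO list. Leaving out a replicate number in both lines also eased the rule, since a peak was then needed only in both libraries left. With replicate 2 of pLKO left out there were 121 Kelly and 180 BE2C clusters. Of these, 69 in each line overlapped a cluster of the other. With replicate 1 left out the BE2C clusters numbered 208.

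**Figure D2:**
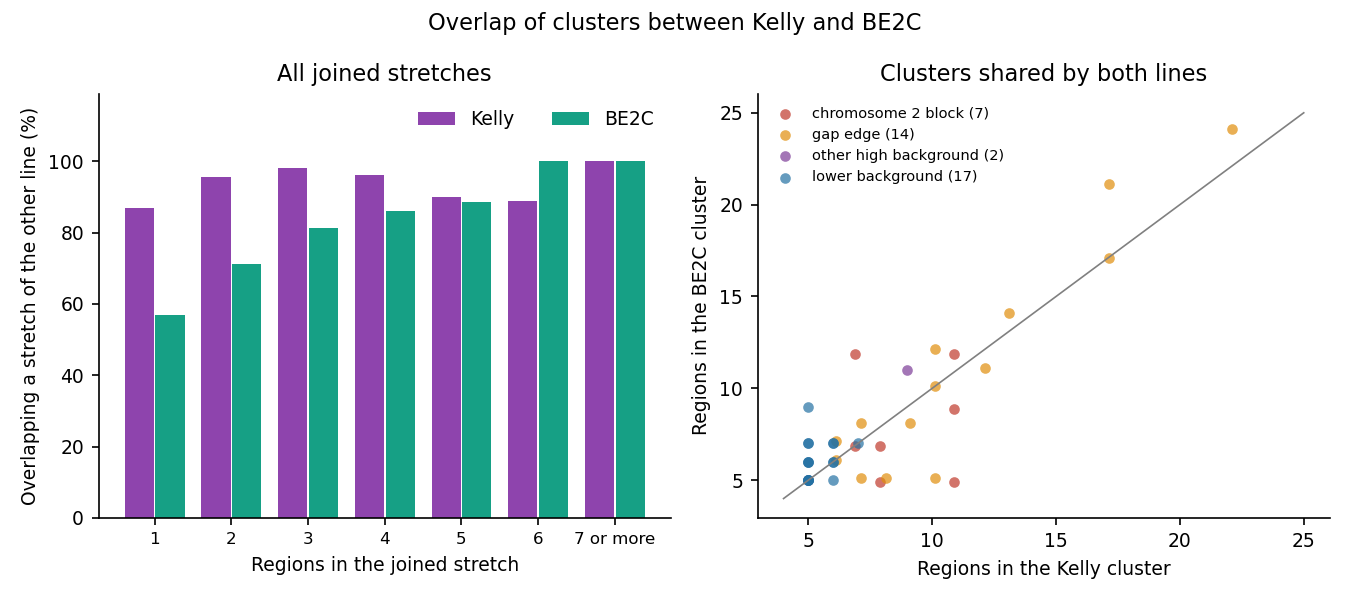
Left, the share of joined stretches (percent) that overlap any stretch of the other line, by the number of regions in the stretch, for Kelly and BE2C. Right, regions in the Kelly cluster against regions in the overlapping BE2C cluster for the 40 Kelly clusters that overlap one, coloured by class and shifted slightly where classes coincide, with the line of equal numbers; 10 had more regions in Kelly, 17 more in BE2C and 13 the same number.

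Among the 40 Kelly clusters that overlapped a BE2C cluster, the number of regions was alike. The median difference, Kelly minus BE2C, was 0 regions, with 10 clusters larger in Kelly, 17 larger in BE2C and 13 equal. Of the 17 of lower background, 8 were larger in BE2C, 8 were equal and 1 was larger in Kelly. The cluster at chr1:153918457-153963472 had 7 regions in each line. The cluster at chr6:27775213-27806838 had 6 in each, and the one at chr10:104153775-104192589 had 6 in Kelly and 7 in BE2C. By contrast the BE2C cluster at chr2:219721054-219774261, with 9 regions, overlapped a Kelly stretch of 1 region. For those at chr3:72338081-72386421 and chr10:80980836-81035136 the overlapping Kelly stretches held 2 regions in all for each.

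The number of peaks per cluster with each hairpin depended on how the lists were read. In shortened lists shAhR-2 libraries had fewer peaks per cluster than shAhR-1 libraries, but these peaks were wider, and they covered more of the clusters. In Kelly the mean was 3.92, 4.19 and 3.94 peaks per cluster in the 3 shAhR-2 libraries, against 5.87, 5.85 and 5.77 in the shAhR-1 libraries. In BE2C it was 4.92, 4.91 and 4.68 with shAhR-2, against 5.38, 5.29 and 5.86 with shAhR-1. Each line's groups did not overlap. Over both lines the difference was −0.36 on the log2 scale, a ratio of 0.778, with an exact two-sided permutation p of 0.005, the smallest that 400 arrangements can give, and an adjusted p of 0.015 over 3 comparisons. The Kelly difference was −0.54 and the BE2C difference −0.19, each with an exact p of 0.1, the smallest that 3 against 3 libraries allow. No hairpin library was used to choose the clusters, so this contrast is independent of the rule, although the clusters were chosen with earlier results of these data known.

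The bases covered by peaks went the other way in the same shortened lists. In Kelly, shAhR-2 peaks covered 4.44, 4.47 and 4.21 kb per cluster, against 2.95, 3.57 and 3.98 kb with shAhR-1. In BE2C they covered 4.63, 4.89 and 4.82 kb with shAhR-2, against 4.03, 4.11 and 3.25 kb with shAhR-1. Again the groups did not overlap in either line. The log2 difference was 0.34, with an exact permutation p of 0.005 and an adjusted p of 0.015 over 9 tests of covered bases, of which those split by class were added after the values were seen. The median width of peaks of the shortened lists in Kelly clusters of lower background was 1007, 865 and 914 bp with shAhR-2, against 272, 506 and 554 bp with shAhR-1. Outside clusters, Kelly peaks had median widths of 1063, 1012 and 1022 bp with shAhR-2, against 320, 685 and 658 bp with shAhR-1. Wider peaks were thus found within and outside clusters in shortened lists. In full lists the Kelly medians outside clusters were 506, 503 and 465 bp with shAhR-2, against 320, 429 and 440 bp with shAhR-1. In BE2C they were 545, 566 and 570 bp against 534, 613 and 447 bp, and the groups overlapped. In clusters of lower background the full-list medians of shAhR-2 stayed above those of shAhR-1 in each line. The part of the shortening in these widths was not tested.

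Full lists gave another reading. With all deposited peaks, Kelly clusters held 10.5, 9.44 and 10.7 peaks with shAhR-2, against 5.87, 9.52 and 9.38 with shAhR-1. BE2C clusters held 7.64, 7.65 and 7.52 peaks with shAhR-2, against 6.83, 5.45 and 5.86 with shAhR-1. The log2 difference was 0.34, with an exact permutation p of 0.010 and an adjusted p of 0.0225 over 9 tests of full lists. The groups were separate in BE2C and overlapped in Kelly, and the shAhR-2 lists were also the longest. The part of list length and depth in these differences was not tested. With shAhR-2 against shAhR-1, fewer and wider peaks in shortened lists came with a higher genome-wide background.

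**Figure D3:**
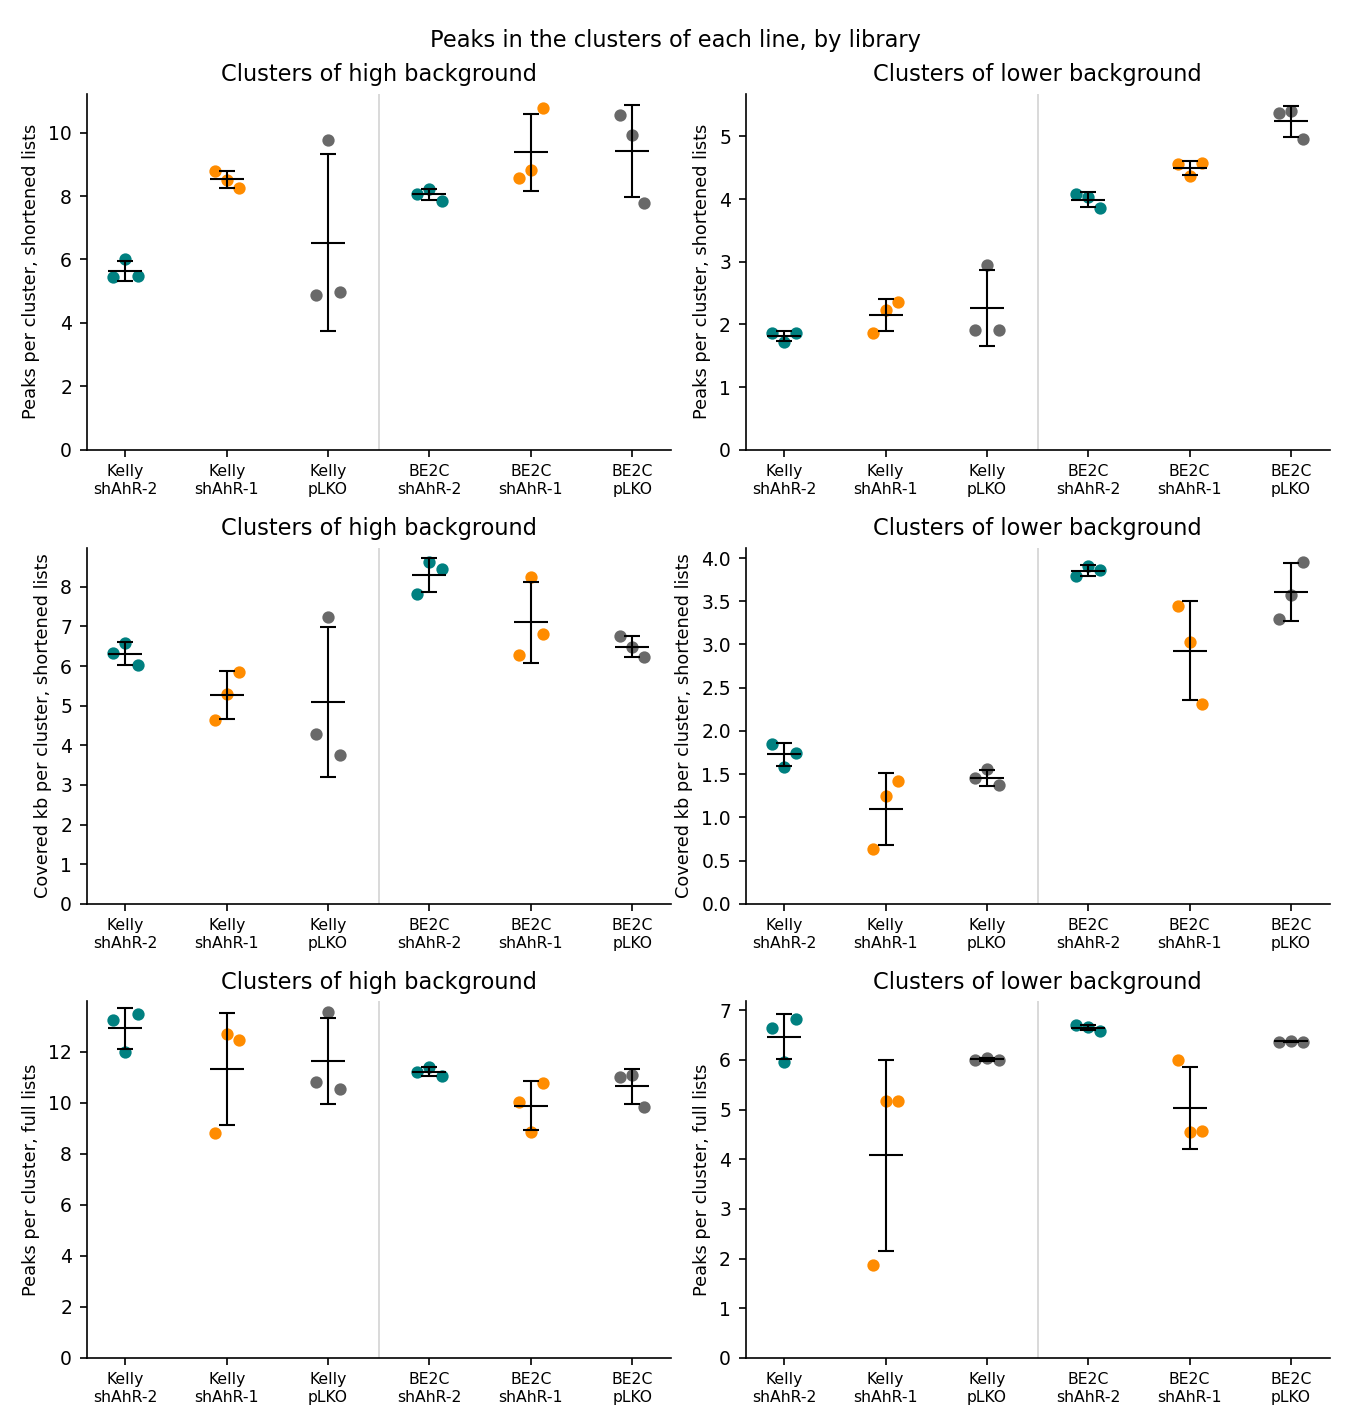
Mean peaks per cluster in shortened lists (top), mean kilobases covered by peaks per cluster in shortened lists (middle) and mean peaks per cluster in full lists (bottom), for clusters of high (left) and lower (right) background, with 1 point per library and black bars for the mean and SD of 3 libraries. In Kelly clusters of high background shAhR-2 libraries lie below shAhR-1 libraries for peaks of the shortened lists and above them for covered kilobases, and replicate 2 of Kelly pLKO lies far above the other pLKO libraries.

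In shortened lists shAhR-2 had fewer peaks than shAhR-1 in both classes set at 10 times the background, but not in the quietest clusters. In clusters of high background, Kelly shAhR-2 libraries had 5.43, 6.0 and 5.47 peaks per cluster, against 8.80, 8.5 and 8.27 with shAhR-1. BE2C libraries had 8.07, 8.22 and 7.85 with shAhR-2, against 8.56, 8.81 and 10.8 with shAhR-1. The log2 difference was −0.41, with an adjusted p of 0.03 in the exact permutation test over 12 tests by class. In clusters of lower background it was −0.20, with an adjusted p of 0.045 in the same exact test. In the 4 Kelly and 46 BE2C clusters under 3 times the background the sign turned, at 0.38 with an adjusted p of 0.19 in the exact permutation test over 3 comparisons. In the class under 10 times the Kelly libraries had 1.86, 1.73 and 1.86 peaks with shAhR-2, against 1.86, 2.23 and 2.36 with shAhR-1, and the groups touched. BE2C libraries had 4.09, 4.04 and 3.85 peaks with shAhR-2, against 4.55, 4.37 and 4.57 with shAhR-1, and the groups were apart. Covered bases in clusters of lower background were higher with shAhR-2 by 0.58 on the log2 scale, with an adjusted p of 0.015 in the exact permutation test.

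The ratio of local to genome-wide background differed between the hairpins, and in opposite directions by class. The genome-wide background was higher in every shAhR-2 library than in every shAhR-1 library. Each ratio was also taken over the library's own peaks, so a lower ratio does not show a lower local background. In the chromosome 2 block the ratio was 0.667 times as high with shAhR-2 as with shAhR-1. The Kelly medians over the block were 86.0, 81.9 and 96.4 times with shAhR-2, against 121, 144 and 136 times with shAhR-1. The BE2C medians were 70.3, 64.6 and 82.2 times with shAhR-2, against 99.0, 118 and 104 times with shAhR-1. In the class of high background next to long peak-free stretches the ratio of the hairpins was 0.620. In clusters of lower background it was 1.47, with 4.84, 3.78 and 4.62 times in Kelly shAhR-2 libraries against 2.07, 2.72 and 2.94 times in shAhR-1 libraries. The groups did not overlap in either line for any of these 3 classes, and each had an adjusted p of 0.005 in the exact permutation test.

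Clusters were next compared one by one, with a call where every shAhR-2 library had fewer, or more, peaks than every shAhR-1 library of the line. In shortened lists 22 of 52 Kelly clusters were called lower and 1 was called higher with shAhR-2. Over all 14014 Kelly stretches 2.83% were called lower and 3.23% higher, and over stretches of 3 or 4 regions 9.73% and 5.45%. In BE2C, 21 of 130 clusters were called lower and 3 higher, against 2.38% and 1.58% of all stretches and 8.81% and 2.53% of stretches of 3 or 4 regions. A stretch with many peaks can more easily be called than a stretch with 1. The median difference, shAhR-2 minus shAhR-1, was −1.33 peaks over Kelly clusters and −0.33 over BE2C clusters, against 0 over all stretches of each line.

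By class, 19 of 30 Kelly clusters of high background were called lower and 0 higher, and 3 of 22 of lower background were called lower and 1 higher. In BE2C, 4 of 27 of high background and 17 of 103 of lower background were called lower. In full lists the calls turned round. There 10 of 52 Kelly clusters were called higher (19.2%) and 2 lower (3.85%). This compares with 4.80% and 0.107% of all Kelly stretches and 16.3% and 1.17% of those with 3 or 4 regions. The Kelly share called higher was thus near that of stretches with 3 or 4 regions. In BE2C, 44 of 130 clusters were called higher (33.8%) and 1 lower (0.769%). The shares were 3.63% and 0.133% of all stretches and 17.1% and 0.241% of those with 3 or 4 regions.

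**Figure D4:**
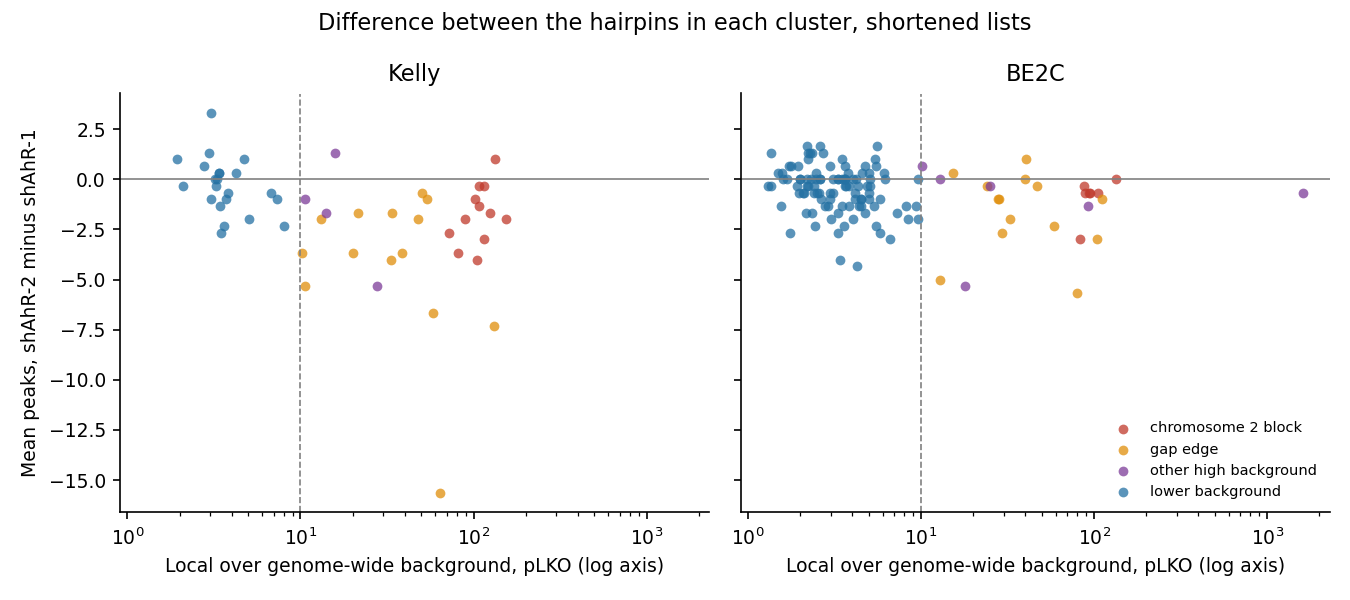
Difference in mean peaks in shortened lists, shAhR-2 minus shAhR-1 (vertical axis), against the local background over the genome-wide background in pLKO (horizontal log axis), 1 point per cluster, in Kelly (left) and BE2C (right). In Kelly 28 of 30 clusters of high background lie below 0, and in BE2C the 103 clusters of lower background lie on both sides of 0, 57 below and 25 above.

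The lowest point in Kelly was the cluster at chr16:46386484-46435517. It held 4, 7 and 5 peaks of the shortened lists in shAhR-2 libraries, 21, 24 and 18 in shAhR-1 libraries and 3, 20 and 4 in pLKO libraries. Only replicate 2 of pLKO was thus near shAhR-1, and the other pLKO libraries were near shAhR-2. In full lists the cluster held 20, 18 and 20 peaks with shAhR-2, against 21, 26 and 22 with shAhR-1 and 18, 21 and 20 with pLKO. The same cluster in BE2C held 12, 14 and 13 peaks of the shortened lists with shAhR-2, against 17, 18 and 21 with shAhR-1 and 22, 21 and 10 with pLKO.

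The next largest decreases in Kelly were also in clusters of high background. The cluster at chr4:49093422-49163944 held 19 peaks of the shortened lists in each shAhR-2 library, against 24, 27 and 26 in shAhR-1 libraries, while its peaks covered 15.5, 16.8 and 16.2 kb with shAhR-2, against 10.1, 12.9 and 12.8 kb with shAhR-1. Fewer peaks there covered more bases. The cluster at chr10:42356033-42409533 held 16, 18 and 16 peaks with shAhR-2, against 25, 25 and 22 with shAhR-1. At chr2:132996260-133045037 the Kelly counts were 6, 7 and 6 with shAhR-2, against 10, 15 and 10 with shAhR-1.

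In BE2C the clusters called lower with the largest differences included 2 of lower background. The cluster at chr19:12876846-12917656 had 8 regions and overlapped Kelly stretches with 4 regions in all. It held 1, 3 and 1 peaks of the shortened lists with shAhR-2, against 6, 5 and 7 with shAhR-1 and 7 in each pLKO library. In full lists it held 9 peaks in each shAhR-2 library, against 9, 5 and 7 with shAhR-1 and 8, 9 and 9 with pLKO. The cluster at chr14:19000325-19036219 held 3, 4 and 3 peaks of the shortened lists with shAhR-2, against 6, 6 and 10 with shAhR-1. It lies 13 bp from the longest peak-free stretch of its chromosome, although its local background was only 3.42 times.

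In shortened lists the clusters called higher with shAhR-2 were of lower background. In full lists 3 of the 10 in Kelly and 7 of the 44 in BE2C were of high background. The only one in the shortened lists of Kelly was chr1:153918457-153963472, with 5, 3 and 6 peaks of the shortened lists in shAhR-2 libraries, against 0, 2 and 2 in shAhR-1 libraries and 2, 3 and 3 in pLKO libraries. Its peaks covered 4.56, 2.84 and 4.93 kb with shAhR-2, against 0, 1.3 and 1.2 kb with shAhR-1. In full lists it held 7 peaks in every Kelly library except replicate 1 of shAhR-1, which had 0. In the shortened lists of BE2C the 3 clusters were chr10:22604980-22634567, chr1:159859444-159886615 and chr14:93372939-93412243. The first held 6 peaks of the shortened lists in each shAhR-2 library, against 5, 4 and 4 in shAhR-1 libraries and 4 in each pLKO library.

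Each hairpin was also set against pLKO by counting each line's peaks in the clusters of the other line. Within a line, the libraries compared had thus not chosen those clusters. However, pLKO libraries of the other line had chosen them, and 40 of 52 Kelly clusters overlapped a BE2C cluster. The tests pool both lines, so they are not fully independent of the rule that chose these clusters. Shortened shAhR-2 lists had fewer peaks there than pLKO lists by a log2 difference of −0.19, which did not pass the exact permutation test at an adjusted p of 0.218. Kelly libraries had 2.20, 2.14 and 2.11 peaks per BE2C cluster with shAhR-2, against 2.12, 3.10 and 2.12 with pLKO. BE2C libraries had 5.77, 5.96 and 5.75 peaks per Kelly cluster with shAhR-2, against 7.54, 7.23 and 5.79 with pLKO. In clusters of lower background the difference was −0.23 and passed, with an adjusted p of 0.04 in the exact permutation test over 12 tests by class. In that class the groups were separate in BE2C and overlapped in Kelly. Under 3 times the background it was −0.088 and did not pass, with an adjusted p of 0.19 in the exact permutation test over 3 comparisons.

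Covered bases and full lists gave shAhR-2 the higher value in this contrast as well. Covered bases per cluster of the other line were higher with shAhR-2 than with pLKO by 0.31 on the log2 scale, and peaks in full lists by 0.23. Each had an adjusted p of 0.015 in the exact permutation test over 9 tests, and the groups did not overlap in either line. Kelly libraries covered 2.28, 2.17 and 2.09 kb per BE2C cluster with shAhR-2, against 1.78, 2.05 and 1.60 kb with pLKO. BE2C libraries covered 5.60, 6.21 and 5.92 kb per Kelly cluster with shAhR-2, against 4.75, 4.70 and 4.58 kb with pLKO.

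The difference between shAhR-1 and pLKO in the clusters of the other line did not pass in shortened or full lists. The log2 difference in shortened lists was 0.13, with an adjusted p of 0.285 in the exact permutation test, and in full lists −0.23, with an adjusted p of 0.141. It passed in full lists kept to a −log10 q of at least 5, at −0.32 with an adjusted p of 0.045 in the exact permutation test over 3 comparisons. Kelly libraries had 2.74, 2.95 and 2.82 peaks per BE2C cluster in shortened lists with shAhR-1, against 2.12, 3.10 and 2.12 with pLKO. BE2C libraries had 6.27, 6.63 and 8.08 per Kelly cluster with shAhR-1, against 7.54, 7.23 and 5.79 with pLKO. The 3 comparisons share libraries, so their values are given side by side and were not set against each other.

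In the clusters of the same line the pLKO peaks had chosen the places, and the values are a description. Shortened lists of Kelly held 4.02 ± 0.150 peaks per cluster with shAhR-2, 5.83 ± 0.0509 with shAhR-1 and 4.72 ± 1.87 with pLKO (SD, n = 3 each). The pLKO mean exceeded that of shAhR-2 through replicate 2, at 6.88, since the other pLKO libraries, at 3.62 and 3.67, lay below every shAhR-2 library. Shortened lists of BE2C held 4.84 ± 0.131 with shAhR-2, 5.51 ± 0.305 with shAhR-1 and 6.11 ± 0.493 with pLKO (SD, n = 3 each). In clusters of lower background the BE2C means were 3.99 ± 0.123 with shAhR-2, 4.50 ± 0.112 with shAhR-1 and 5.25 ± 0.247 with pLKO. In Kelly they were 1.82 ± 0.0787, 2.15 ± 0.258 and 2.26 ± 0.604 in that order of groups, and the wide spread with pLKO came with replicate 2, at 2.95 against 1.91 in each of the others.

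The same rule was then applied to the libraries of each hairpin in place of pLKO. With full lists it found 237 Kelly clusters in shAhR-2, 24 in shAhR-1 and 52 in pLKO. In BE2C it found 831 clusters in shAhR-2, 48 in shAhR-1 and 130 in pLKO. These numbers followed the number of regions, which was 39797, 7331 and 16251 in Kelly and 55132, 19086 and 25558 in BE2C, in the same order of groups. With shortened lists the counts drew closer, at 8, 19 and 7 in Kelly and 48, 35 and 56 in BE2C.

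How many clusters were found again depended on the lists. In full lists, 20 of 22 in Kelly and 99 of 103 in BE2C of lower background overlapped a cluster of the shAhR-2 libraries. With shAhR-1 these counts were 1 of 22 and 25 of 103. There were 237 and 831 shAhR-2 clusters to overlap in Kelly and BE2C, against 24 and 48 with shAhR-1. No share over all pLKO stretches was set beside these counts, so they are not read as a property of the clusters. Clusters of high background were found again in 30 of 30 cases in Kelly and 23 of 27 in BE2C with shAhR-2, and in 18 of 30 and 19 of 27 with shAhR-1. In shortened lists, 0 of 22 in Kelly and 24 of 103 in BE2C of lower background were found with shAhR-2, and 0 of 22 and 17 of 103 with shAhR-1. Of high background, 7 of 30 in Kelly and 15 of 27 in BE2C were found with shAhR-2, against 15 of 30 and 16 of 27 with shAhR-1. The pLKO libraries themselves gave 1 of 22 and 38 of 103 of lower background and 5 of 30 and 18 of 27 of high background in shortened lists. A region had to have a peak in all 3 libraries, so the short list of replicate 1 of Kelly shAhR-1 limits what could be found with that hairpin.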

How the data were processed

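ATAC-seq was measured in 18 libraries of 6 groups, taken from the cell line and genotype labels. Per the submitters' processing notes, the tools were MACS2 2.1.0, BWA 0.7.17, deepTools 3.1.3, Trimmomatic 0.33 and CASAVA 1.8.2, on build hg19. Their settings and any correction for the transposase offset, which could move summits by some bases, are not stated in the labels used here. The authors deposited 1 peak list per library, with no pooling. Each deposited peak has a score, a fold enrichment as a linear ratio, a −log10 p-value and a −log10 q-value, all the authors' own.

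Shortened lists hold the strongest autosomal peaks by −log10 p. A peak was counted in each cluster it overlapped. The local background was solved from fold and p, where the fold reached 1.5, with a pseudocount of 1 and a Poisson tail, in at least 96.9% of each list. The most frequent value was the genome-wide background, and a cluster's value is the median over its peaks and libraries. Groups were compared by two-sided exact permutation tests of mean log2 values, with labels exchanged within lines and Benjamini-Hochberg adjustment at a threshold of 0.05. Replicate numbers were taken as not pairing libraries, and no test within a line can pass.

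Clusters named are, per line, the 8 with the most regions, the 8 largest shared ones, and up to 4 higher and 4 lower with shAhR-2 than with shAhR-1. The members and all lists were chosen with earlier results of these data known. The classes at 10 times the background, the tests by class and the tests of local background were added after the data were seen. Covered bases and full lists over all clusters were alternatives to the main tests. Alternatives were other joining distances, minimum numbers, peak thresholds and lists, and leaving out each library. For cluster numbers, 1 replicate number of pLKO was left out in both lines at once. Read depth was not used in any other form; the shortest list limits each comparison of shortened lists, and the number of reads behind a peak is not known. The functions were tested on simulated data. Python 3.11.15, NumPy 2.4.6, pandas 2.3.3, SciPy 1.17.1 and matplotlib 3.10.9 were used.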

Additional observations from a re-analysis of the deposited data

How the results depend on the processing

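Cluster numbers depended on the rule. Kelly and BE2C had 13 and 18 clusters when joined under 5 kb (10 shared, counted in each line), 143 and 463 under 25 kb (117 shared), 105 and 309 with at least 4 regions (80 and 79 shared), 18 and 22 with at least 8 (11 shared), and 146 and 307 with a peak in at least 2 pLKO libraries (103 shared). With −log10 q of at least 5 they had 32 and 70 (23 shared), under 3 times the background 4 and 46 (2 shared), and under 10 times 22 in Kelly (17 shared). Lists shortened to the shortest pLKO list left 33 in Kelly. Then 1 replicate number of pLKO was left out in both lines at once, with a peak needed only in both libraries left. The numbers were 57 to 121 and 157 to 208, of which 45 to 69 Kelly and 44 to 69 BE2C clusters were shared.

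The log2 difference between shAhR-2 and shAhR-1 reversed to 0.34 in full lists, 0.47 with the q limit added, 0.34 for covered bases and 0.38 under 3 times the background. In the same settings without the last, shAhR-2 against pLKO reversed to 0.23, 0.28 and 0.31. It passed at −0.18 under 25 kb, −0.22 with at least 4 regions, −0.24 with 2 pLKO libraries and −0.23 under 10 times the background. shAhR-1 against pLKO reversed to −0.23 in full lists, −0.32 with the q limit added, −0.039 for covered bases, −0.15 under 3 times, −0.019 under 10 times and −0.043 under 25 kb. The causes were not tested. Without 1 library the 3 differences were −0.38 to −0.30, −0.25 to −0.10 and 0.05 to 0.22.

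In the clusters of the same line, the difference from pLKO moved to −0.23 (full), −0.31 (full, q) and −0.55 (under 3 times) for shAhR-1, and to 0.10, 0.16 and 0.26 (covered bases) for shAhR-2. Without 1 library these were 0.02 to 0.26 and −0.33 to −0.10.

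With replicate numbers as a block, the difference between shAhR-2 and shAhR-1 stayed −0.36, with an exact permutation p of 0.0312, the smallest possible, and an adjusted p of 0.0938. Correlations of libraries with the same number ran from −0.534 to 0.557, with 8 of 18 over 0.1. Only Kelly shAhR-2 with pLKO had all 3 over 0.1 (0.241 to 0.557), and its comparison over both lines gave an adjusted p of 0.234 with the block, in the exact permutation test. The numbers were taken as not pairing libraries. Peak lists limit depth: a site with no peak was not shown to be closed.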
